A study of Drosophila melanogaster with 6 samples.

Results

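Larval brains labelled as E347 ablation were set directly against larval brains labelled as E347 activation. Both words are those of the labels, and neither loss nor activity of the E347 neurons was tested. Of the study's 6 samples, the 4 samples of these 2 groups enter the comparison, 2 pools of brains a group. The values are those of the authors' deposited table for this pair of groups. A gene was followed where at least 1 of its transcripts had been tested, and gene sums added the values of all transcripts that share a gene number. This left 8959 of 14012 genes, and 5926 of them had a sum of at least 10 FPKM in both groups, the floor used below for a ratio between 2 levels well above 0. Just inside that floor among genes that differed 2-fold or more lay Gadd45 at 10.1 FPKM in ablation and 24.02 FPKM in activation, and CG10365 at 20.6 FPKM in ablation and 10.2 FPKM in activation. Just outside it lay Fbp2 at 77.1 FPKM in ablation and 9.56 FPKM in activation, and CG4627 at 21.3 FPKM in ablation and 9.54 FPKM in activation.

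Ablation larvae carried E347-GAL4 on a w X chromosome over a yw,UAS-ShiDN X chromosome, with UAS-ShiDN/+ on the second chromosome as well, and were sampled as pools of 100 and 91 brains. Activation larvae carried E347-GAL4 on a w X chromosome over yw, with UAS-NachBac on the third chromosome, and were sampled as pools of 100 and 97 brains. Larvae of both groups were thus E347-GAL4 heterozygotes over a yw chromosome. They were kept at 25 °C on medium containing 35 g of yeast a liter and were dissected when wandering, and total RNA was extracted. The labels do not say which cells the driver reaches beyond the E347 neurons. The groups differ in transgene and in its insertion sites as well as in the intended state of the neurons, and these cannot be told apart here. Whole brains were sequenced, so fewer cells of a type and less RNA per cell cannot be told apart either.

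GAL4 is a yeast transcription factor that switches on any transgene placed behind its UAS binding sites, so a driver line directs a transgene to a chosen set of cells. ShiDN blocks shibire, a dynamin GTPase that pinches off endocytic vesicles, in a dominant-negative way. NachBac, a voltage-gated sodium channel from bacteria, raises the excitability of neurons. FPKM scales the fragments of a transcript to its length and to the size of the library, which makes levels comparable between genes. Cuffdiff, the program behind the deposited table, estimates each transcript's FPKM and tests the difference between groups. The table holds 1 value per group and transcript and none per pool, so the spread between pools and the sequencing depth are unknown.

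The genes of the design were examined first. shi, the target of ShiDN, had a gene sum of 73.3 FPKM in ablation and 74.5 FPKM in activation. para, the fly's own voltage-gated sodium channel gene, had 4.29 FPKM in ablation and 2.92 FPKM in activation. The deposited annotation lists no bacterial NachBac transcript, and ShiDN cannot be separated from shi by these gene sums, so neither gene checks the labels. w, the eye colour transporter gene that also serves as a marker of many transgenes, fell in ablation with a log2 ratio of -3.22 in the authors' deposited table. y was near 0 in both groups, at 0.630 FPKM in ablation and 0.591 FPKM in activation.

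Defining markers of neurons and glia were found in both groups. elav, an RNA-binding protein of neurons, had 112 FPKM in ablation and 110 FPKM in activation, and nSyb, the synaptic vesicle synaptobrevin, had 97.7 FPKM in ablation and 92.5 FPKM in activation. repo, the transcription factor of glia, had 30.1 FPKM in ablation and 28.1 FPKM in activation. These 3 were picked with their values in view, and other neuronal and glial genes, among them Gs2, bnb and nrv1, lay further apart. nrv1, a subunit of the sodium pump, had 18.1 FPKM in ablation and 30.4 FPKM in activation. Across the 5926 genes of at least 10 FPKM the median log2 ratio of ablation over activation was 0.0037, its SD was 0.314, and 94.0% of the genes lay within 1.5-fold. Higher values in ablation were found for 2993 genes and lower values for 2933.

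**Figure D1:**
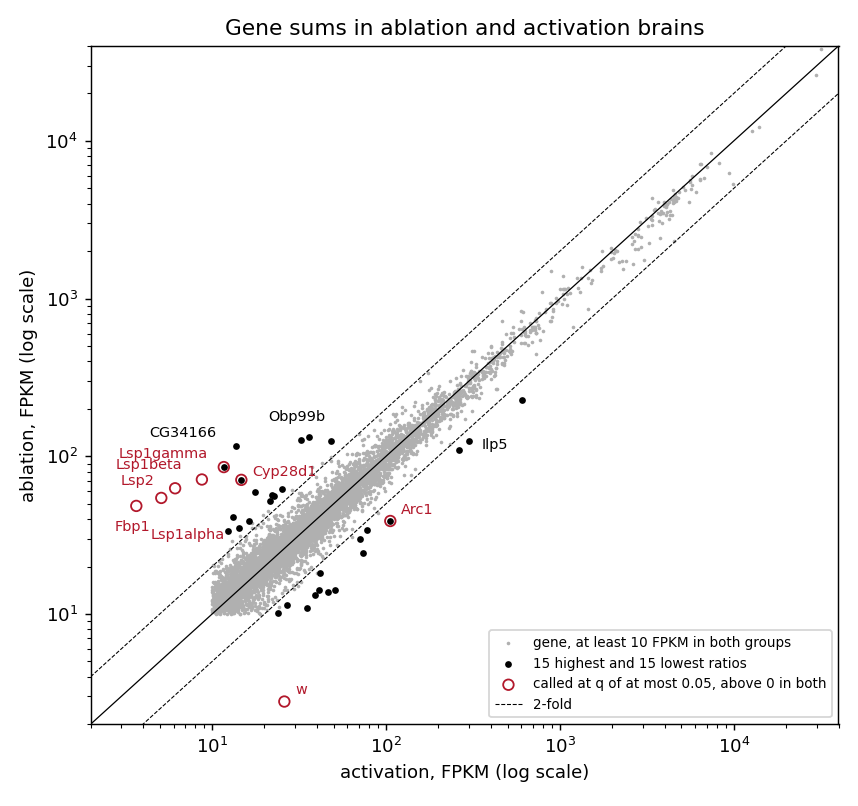
Gene sums in FPKM of the 5926 tested genes of at least 10 FPKM in both groups (grey), ablation on the vertical and activation on the horizontal axis, both on log scales. Black points are the 15 highest and 15 lowest ratios, red rings are genes of the 8 called transcripts above 0 in both groups, the solid line marks equal values and the dashed lines 2-fold. Most genes lie along the solid line, and the ringed genes other than Arc1 and w lie above it.

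Calls were few: 46 of 12419 transcripts tested in the authors' deposited table, or 0.37%, had a q-value of at most 0.05, the threshold for a call used throughout. In ablation 31 rose (0.25%) and 15 fell (0.121%). Of these calls 25 were listed at 0 in activation and 13 at 0 in ablation, which leaves 8 transcripts above 0 in both groups, 6 higher and 2 lower in ablation. Among the 8922 tested transcripts of genes of at least 10 FPKM in both groups 4 were called (0.0448%), those of Lsp1gamma, Cyp28d1 and Arc1 and 1 transcript of 14-3-3zeta. Before adjustment, 399 of the 12419 transcripts (3.21%) and 189 of those 8922 (2.12%) had p under 0.05 in the authors' deposited table. Adjusting the deposited p-values again over the 11556 transcripts above 0 in both groups left 0 calls, with a smallest adjusted value of 0.0722. Reading the deposited statistic of the same transcripts as a normal score gave 28 calls, 21 higher and 7 lower in ablation, which shared 7 transcripts with the 46. On this reading the adjusted p was 4.87e-05 for RpL39, 0.000385 for CG34166, 0.00182 for Ilp5 and 0.00585 for Fbp2. It was 0.0142 for E(spl)malpha-BFM, 0.0185 for Obp99b and 0.0299 for Lcp3. None of these 7 genes was among the 46 calls. The normal reading departs from the deposited p-values. CG14302 had a statistic of 4.98 with a deposited p of 0.441, and yip7 a statistic of 5.76 with a deposited p of 0.199. Both were among the 28, so a small adjusted p on this reading is no evidence beyond the deposited p.

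Cyp28d1, a cytochrome P450, had 70.9 FPKM in ablation and 14.7 FPKM in activation. It rose in ablation with a log2 ratio of 2.27 and q = 0.0163 in the authors' deposited table, and its locus there lies on 2L from 5210479 to 5214677 of build dm3. Its family member Cyp28a5 had 41.3 FPKM in ablation and 13.2 FPKM in activation, and missed the threshold with q = 0.0731 in the authors' deposited table. Cyp28d2, the gene next to Cyp28d1, was low in both groups, at 0.720 FPKM in ablation and 1.63 FPKM in activation. Other cytochrome P450 genes went the other way or were close: Cyp9c1 had 13.1 FPKM in ablation and 39.1 FPKM in activation, and Cyp9f2 had 24.9 FPKM in ablation and 18.4 FPKM in activation. The detoxification list holds cytochrome P450, glutathione S-transferase and other enzyme genes. Of the 46 tested transcripts of its 40 tested genes 1 rose and 0 fell. Over all 12419 tested transcripts 31 rose (0.25%) and 15 fell (0.121%). Of the list's 14 genes of at least 10 FPKM 6 were higher and 8 lower in ablation, with a median log2 ratio of -0.08. Both ends of that list lay far from its median, with 2 genes at least 2-fold higher and 1 at least 2-fold lower. The list does not hold every member of these families: GstT3, a glutathione S-transferase that was also more than 2-fold lower in ablation, is outside it.

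Arc1, a capsid-like protein that carries RNA between cells and whose transcript follows neuronal activity, fell to 38.9 FPKM in ablation, against 106 FPKM in activation. The authors' deposited table gives it a log2 ratio of -1.44 with q = 0.0163, and it was the 1 of the 8 transcripts that did not pass with normal p-values. Arc2, the neighbouring copy on 2R, had 1.62 FPKM in ablation and 6.61 FPKM in activation, and was not called. Other members of the list of activity-regulated genes lay closer together. kay, the fly Fos, had 32.6 FPKM in ablation and 42.5 FPKM in activation, Jra, the fly Jun, had 58.2 FPKM in ablation and 59.0 FPKM in activation, and CaMKII had 176 FPKM in ablation and 207 FPKM in activation. CrebB, a transcription factor of cAMP signalling, had 28.9 FPKM in ablation and 21.8 FPKM in activation. Of the 49 tested transcripts of the list's 23 tested genes 0 rose and 1 fell. Over all 12419 tested transcripts 31 rose (0.25%) and 15 fell (0.121%). The list's 14 genes of at least 10 FPKM split into 5 higher and 9 lower in ablation with a median log2 ratio of -0.01.

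Lsp1gamma, a larval storage hexamerin of the fat body and haemolymph, had 85.4 FPKM in ablation and 11.7 FPKM in activation, the highest ratio among the calls of genes of at least 10 FPKM in both groups (log2 2.87, q = 0.0163 in the authors' deposited table). The hexamerin genes Lsp1alpha, Lsp1beta and Lsp2 and their receptor gene Fbp1 were the other calls above 0 in both groups that rose, all below 10 FPKM in activation. These 5 belong to the fat body list, of whose 15 tested genes 5 rose and 0 fell. Over all 12419 tested transcripts 31 rose (0.25%). The 20 genes of the fat body list summed to 772 FPKM in ablation and 338 FPKM in activation, with 2 of them listed at 0 in ablation and 1 in activation. The other members lay on both sides of equal. Obp99b had a log2 ratio of 1.98, and NLaz, a lipocalin, had 20.9 FPKM in ablation and 32.5 FPKM in activation. Nearer to equal, apolpp, the apolipoprotein of haemolymph lipid particles, had 80.9 FPKM in ablation and 85.3 FPKM in activation, FASN1, fatty acid synthase, had 52.2 FPKM in ablation and 50.6 FPKM in activation, and Tsf1, transferrin, had 51.0 FPKM in ablation and 48.5 FPKM in activation. Of the 15 tested genes 11 were higher and 4 lower in ablation, with a median log2 (FPKM + 1) ratio of 1.27, and 7 transcripts, all higher, had an unadjusted p under 0.05. The 7 genes of at least 10 FPKM in both groups gave 4 higher and 3 lower and a median log2 ratio of 0.04. The hexamerin genes are similar in sequence, so reads may be shared between them.

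Among calls listed at 0 in 1 group, the highest value in the other group was that of LysD, a digestive lysozyme, at 436 FPKM in ablation, followed by its neighbour LysB at 306 FPKM and CG31789 at 157 FPKM. In activation the highest were the RH transcript of 14-3-3zeta at 59.8 FPKM, CG34278 at 32.9 FPKM and CG13036 at 12.4 FPKM. 14-3-3zeta, an adaptor protein that binds phosphorylated partners, had a gene sum of 937 FPKM in ablation and 892 FPKM in activation. The midgut list of digestive enzymes held 7 of the 31 rises and 0 falls among its 19 tested transcripts. Over all 12419 tested transcripts 31 rose (0.25%). All 7 were at 0 in activation, so they could be tested only through their ablation values. The 45 genes of the midgut list summed to 2016 FPKM in ablation and 21.7 FPKM in activation, and 13 of them were listed at 0 in ablation and 26 in activation. No gene of that list reached 10 FPKM in both groups. Lysozyme and trypsin genes are arrays of near-identical copies, so the division of reads among them is uncertain. The part of midgut and fat body RNA in the results of other genes was not tested.

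Of the 5926 genes of at least 10 FPKM in both groups 51 differed at least 2-fold (0.861%), 29 higher (0.489%) and 22 lower (0.371%) in ablation. A gene of these 51 had 1 transcript in 44 cases, a transcript with an unadjusted p under 0.05 in 26 and a called transcript in 3. Among the 5569 genes under 1.5-fold 90 had a transcript with p under 0.05 and 1 had a called transcript. The share of 2-fold genes was larger at short loci. Loci under 500 bases gave 7 of 59 genes, and loci of at least 5000 bases gave 12 of 2369. The SD of the log2 ratio was 0.653 in the shortest class and 0.276 in the longest. By level, 30 of the 2373 genes with a geometric mean between 20 and 50 FPKM and none of the 188 at 500 FPKM or more differed 2-fold.

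**Figure D2:**
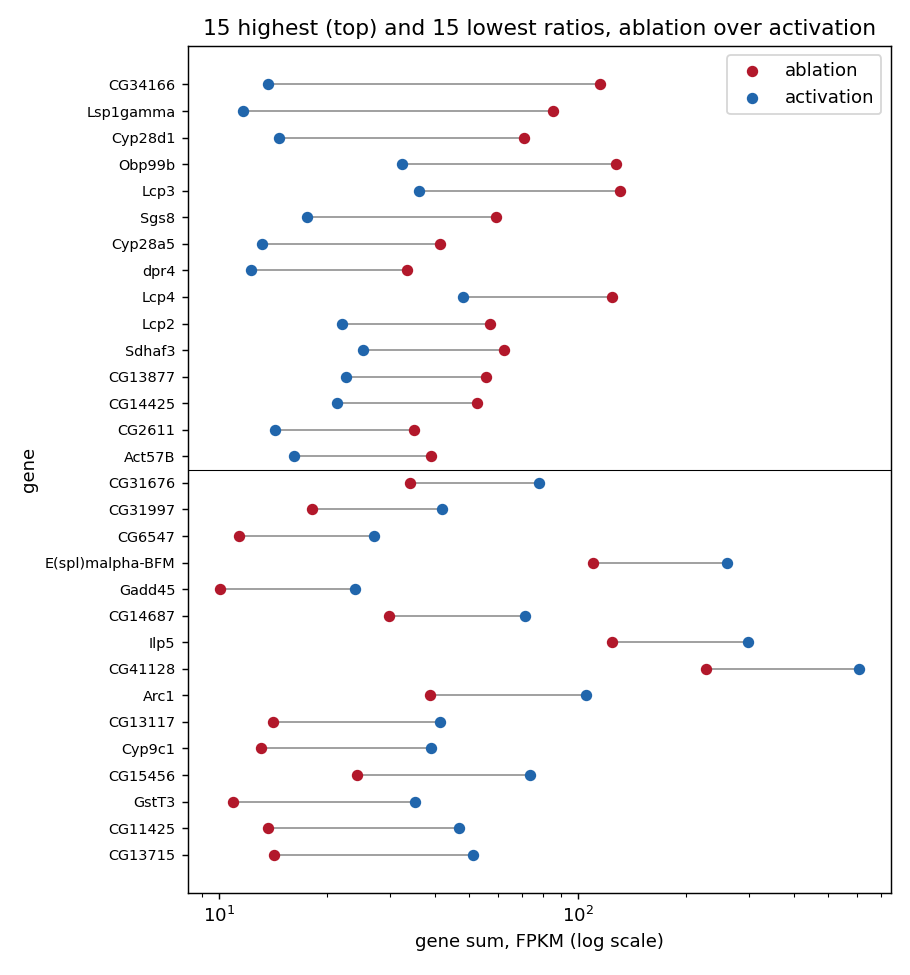
Gene sums in FPKM (horizontal, log scale) of the 15 genes with the highest and the 15 with the lowest ratio of ablation over activation among genes of at least 10 FPKM in both groups. Each line joins the ablation value (red) and the activation value (blue) of a gene. The widest gap is that of CG34166, with 116 FPKM in ablation and 13.7 FPKM in activation.

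CG34166, a gene without a name, had the highest ratio, with 116 FPKM in ablation and 13.7 FPKM in activation (log2 3.08, p = 0.0008 in the authors' deposited table). Obp99b, an odorant-binding protein gene that is also in the fat body list, had 127.7 FPKM in ablation and 32.4 FPKM in activation. The abundant brain members of that family were close, Obp44a at 26325 FPKM in ablation and 29649 FPKM in activation, and Obp99a at 1596 FPKM in ablation and 1342 FPKM in activation. dpr4, a cell surface immunoglobulin protein of the family that pairs neurons with their partners, had 33.6 FPKM in ablation and 12.3 FPKM in activation. Sdhaf3, an assembly factor of succinate dehydrogenase, had 62.2 FPKM in ablation and 25.2 FPKM in activation, and Act57B, a muscle actin, had 39.1 FPKM in ablation and 16.3 FPKM in activation. Of these genes none passed the threshold. The muscle list summed to 388 FPKM in ablation and 362 FPKM in activation, with 1 of its 28 genes at 0 in ablation and 3 in activation. Of its 20 tested genes 16 were higher and 4 lower in ablation, with a median log2 (FPKM + 1) ratio of 0.58, while the 4 of at least 10 FPKM gave 1 higher and 3 lower with a median log2 ratio of -0.16. No muscle transcript was called, and an unadjusted p under 0.05 was held by 2 higher and 1 lower. Mhc, muscle myosin, was near 0, at 0.654 FPKM in ablation and 0.641 FPKM in activation, and had no test.

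Some larval cuticle and salivary glue protein genes had high ratios, while their lists as wholes lay on both sides of equal and held no call. Lcp3 had 132 FPKM in ablation and 36.1 FPKM in activation, Lcp4 had 125 FPKM in ablation and 48.0 FPKM in activation, Lcp2 had 57.0 FPKM in ablation and 22.1 FPKM in activation, and Lcp1 had 153 FPKM in ablation and 121 FPKM in activation. Lcp2, Lcp3 and Lcp4 lie in a row on 2R, with gaps of 868 and 1638 bases between them. The cuticle and trachea list summed to 538 FPKM in ablation and 307 FPKM in activation, with 22 of its 45 genes at 0 in ablation and 20 in activation. Of its 17 tested genes 0 rose and 0 fell (unadjusted p under 0.05 for 4 higher and 1 lower transcript). Its 7 genes of at least 10 FPKM gave 6 higher and 1 lower with a median log2 ratio of 0.61, while all 17 gave 8 higher and 9 lower with a median log2 (FPKM + 1) ratio of -0.12, of the other sign. Sgs8 had 59.3 FPKM in ablation and 17.6 FPKM in activation, and its neighbour Sgs7 had 85.8 FPKM in ablation and 37.3 FPKM in activation. Both encode small glue proteins of the salivary gland, and ng3, a further gene of that gland, had 1.13 FPKM in ablation and 76.0 FPKM in activation. ng3 is named here because of its values. The salivary gland list summed to 191 FPKM in ablation and 190 FPKM in activation with 11 of 23 genes at 0 in each, and 0 of its 11 tested genes rose or fell or had an unadjusted p under 0.05. Those 11 gave 5 higher and 6 lower in ablation with a median log2 (FPKM + 1) ratio of -0.12, and the 3 of at least 10 FPKM, all higher, a median log2 ratio of 1.20. Of the 51 genes 8 were in a list of another tissue, and all 8 were higher in ablation. Of all 5926 genes 5897 lay outside these lists, which were chosen with earlier results known. The 8 include the neighbours Lcp2, Lcp3 and Lcp4 and the neighbours Sgs7 and Sgs8, so they are not independent. The part of attached cuticle, gland or fat tissue in these values was not tested.

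The lowest ratios included CG13715, with 14.3 FPKM in ablation and 51.2 FPKM in activation, CG11425, with 13.7 FPKM in ablation and 46.6 FPKM in activation, and GstT3, a glutathione S-transferase, with 10.96 FPKM in ablation and 35.2 FPKM in activation. CG41128 was the most abundant gene among them, at 229 FPKM in ablation and 607 FPKM in activation. Gadd45, a growth arrest and DNA damage response gene, had 10.1 FPKM in ablation and 24.02 FPKM in activation. CG6547 and CG14687, which lie 8771 bases apart on 3R, were both lower in ablation. CG6547 had 11.4 FPKM in ablation and 27.1 FPKM in activation, and CG14687 had 29.9 FPKM in ablation and 71.3 FPKM in activation. CG31676 had 34.1 FPKM in ablation and 78.1 FPKM in activation, with p = 0.0023 in the authors' deposited table. Apart from Arc1 no gene among the 22 passed the threshold.

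Ilp5 had a lower ratio than the other insulin-like peptide genes made by the insulin-producing cells of the brain. These median neurosecretory cells release the peptides encoded by Ilp2, Ilp3 and Ilp5, which act on growth and metabolism. Ilp5 had 124 FPKM in ablation and 299 FPKM in activation, a log2 ratio of -1.26 with p = 0.0148 in the authors' deposited table (q = 0.983), so it was not called. When the deposited statistic was read as a normal score, a reading that departs from the deposited p-values, its adjusted p was 0.00182. Ilp2 had 293 FPKM in ablation and 298 FPKM in activation, and Ilp3 had 52.7 FPKM in ablation and 69.4 FPKM in activation. The difference between Ilp5 and Ilp2 was not tested. Ilp6, an insulin-like peptide gene of the fat body, had 7.602 FPKM in ablation and 15.8 FPKM in activation, and Ilp7, made in neurons of the nerve cord, had 17.1 FPKM in ablation and 13.6 FPKM in activation. Ilp2, Ilp3 and Ilp7 were chosen after their values were seen.

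Genes of the insulin and TOR signalling list were lower in ablation more often than higher, by small ratios. The list is not confined to genes downstream of the insulin receptor, since it also holds ImpL2. Of 33 tested genes of the list 0 rose and 0 fell (unadjusted p under 0.05 for 1 higher and 1 lower transcript), and the 28 of at least 10 FPKM gave 9 higher and 19 lower with a median log2 ratio of -0.14. Thor, the translation inhibitor 4E-BP that foxo switches on, had 36.9 FPKM in ablation and 56.5 FPKM in activation. ImpL2, a secreted protein that binds insulin-like peptides, had 50.4 FPKM in ablation and 71.6 FPKM in activation. REPTOR-BP, the partner of a transcription factor held back by TOR, had a gene sum of 129 FPKM in ablation and 90.6 FPKM in activation. Its RB transcript had 52.6 FPKM in ablation and 0 FPKM in activation, while RC was lower, at 76.1 FPKM in ablation and 90.6 FPKM in activation. The receptor gene InR had 7.93 FPKM in ablation and 9.32 FPKM in activation.

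Most genes of the neuropeptide list, which also holds Ilp5, had somewhat higher values in ablation. Of 39 genes of at least 10 FPKM 25 were higher and 14 lower, with a median log2 ratio of 0.13, and of the 49 tested genes 0 rose and 0 fell (unadjusted p under 0.05 for 1 higher and 2 lower transcripts). Proc, the precursor of proctolin, had 118 FPKM in ablation and 73.9 FPKM in activation, the 1 higher member with an unadjusted p under 0.05 (p = 0.0177 in the authors' deposited table). NPF, the fly neuropeptide F, had 54.0 FPKM in ablation and 31.6 FPKM in activation. Trissin had 35.8 FPKM in ablation and 19.1 FPKM in activation, and Pburs, a subunit of bursicon, the hormone that hardens new cuticle, had 23.4 FPKM in ablation and 12.3 FPKM in activation, while Burs, its partner subunit, had 19.6 FPKM in ablation and 31.0 FPKM in activation. Pdf, the peptide of clock neurons, had 64.1 FPKM in ablation and 67.4 FPKM in activation, and Ptth, the peptide that drives ecdysone synthesis, had 6.58 FPKM in ablation and 6.88 FPKM in activation.

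Genes of the Enhancer of split complex were lower in ablation almost throughout. The complex is a cluster of genes on 3R, from 21823343 to 21866585, that Notch signalling switches on, made up of HLH repressors, which hold back neural differentiation, and BFM (Bearded family) genes, which modulate Notch signalling. All 11 genes reached 10 FPKM in both groups, 10 were lower and 1 higher in ablation, and the median log2 ratio was -0.65, against 0.0037 over all 5926 genes. The loci were short, with a median of 886 bases against 3807.5 over all 5926 genes, and ratios spread more widely at short loci. With loci of at least 1000 bases only, chosen after seeing the data, the median log2 (FPKM + 1) ratio was -0.49, against -0.65 over all 11. Few genes were left by this setting. They were E(spl)mdelta-HLH (log2 ratio -0.75), E(spl)mbeta-HLH (-0.65), E(spl)m3-HLH (-0.33) and E(spl)m6-BFM (0.10). Only E(spl)mbeta-HLH among them had a p under 0.05 in the authors' deposited table (p = 0.0413). The part of locus length in the median was not tested. None of the 11 transcripts was called, while 5 had an unadjusted p under 0.05, all lower. The complex was chosen after its values were seen, and its genes share a locus and a regulator, so the 11 genes are not independent.

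All 7 HLH genes were lower in ablation. E(spl)mgamma-HLH, which is active in neural stem cells, had 123 FPKM in ablation and 208 FPKM in activation (log2 -0.76, p = 0.0104 in the authors' deposited table), and E(spl)m7-HLH had 83.1 FPKM in ablation and 147 FPKM in activation. E(spl)m8-HLH had 118 FPKM in ablation and 170 FPKM in activation, E(spl)mbeta-HLH had 68.2 FPKM in ablation and 107 FPKM in activation, and E(spl)mdelta-HLH had 34.3 FPKM in ablation and 57.5 FPKM in activation. The lowest ratios of the complex were those of 2 BFM genes. E(spl)malpha-BFM had 110 FPKM in ablation and 261 FPKM in activation (log2 -1.24, p = 0.004 in the authors' deposited table). Its deposited q was 0.432, so it was not called. With the statistic read as a normal score its adjusted p was 0.0142. That reading departs from the deposited p-values and is no evidence beyond them. E(spl)m2-BFM had 18.3 FPKM in ablation and 40.1 FPKM in activation, E(spl)m4-BFM had 214 FPKM in ablation and 257 FPKM in activation, and E(spl)m6-BFM, the 1 higher member, had 35.3 FPKM in ablation and 32.8 FPKM in activation. N, the receptor, had 27.1 FPKM in ablation and 23.9 FPKM in activation. neur, a ubiquitin ligase of the Notch ligand, had 37.6 FPKM in ablation and 52.3 FPKM in activation.

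**Figure D3:**
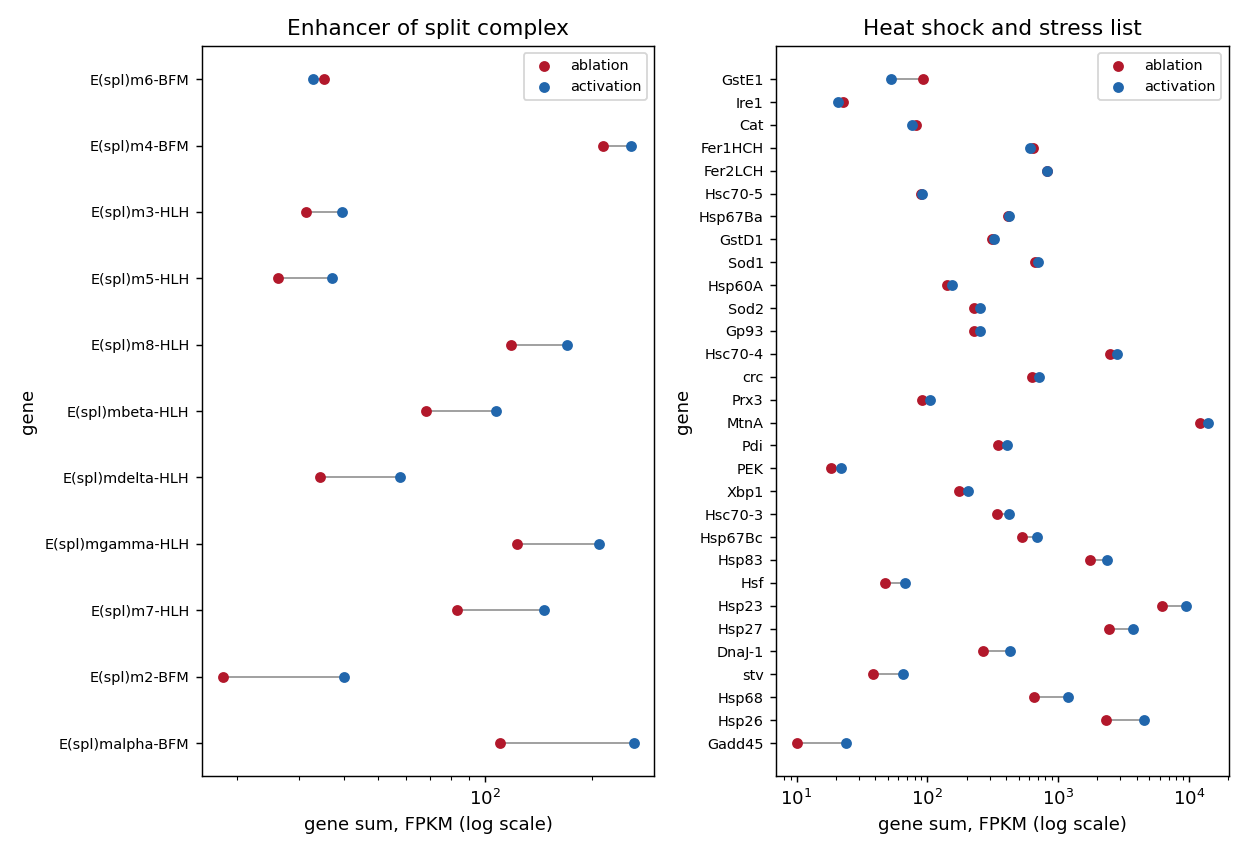
Gene sums in FPKM (horizontal, log scale) of the 11 Enhancer of split genes (left) and of the 30 heat shock and stress genes of at least 10 FPKM in both groups (right). Red points are ablation and blue points activation, in order of the ratio of ablation over activation, highest at the top. Ablation lies left of activation for 10 of 11 genes on the left and for 26 of 30 on the right.

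Neural stem cell genes outside the complex lay nearer to equal, a difference that was not tested. dpn, a target of Notch in neuroblasts, had 33.3 FPKM in ablation and 46.8 FPKM in activation, mira, which carries fate determinants at division, had 95.7 FPKM in ablation and 124 FPKM in activation, and ase, a proneural factor of neuroblasts, had 45.2 FPKM in ablation and 48.8 FPKM in activation. pros, a determinant of differentiating daughters, had 144 FPKM in ablation and 131 FPKM in activation. Of 46 tested genes of the neuroblast list, which holds 2 Enhancer of split genes, 0 rose and 0 fell (unadjusted p under 0.05 for 0 higher and 3 lower transcripts), and 38 of at least 10 FPKM gave 12 higher and 26 lower with a median log2 ratio of -0.10. The cell cycle list of 52 genes of at least 10 FPKM split evenly into 26 higher and 26 lower, with a median log2 ratio under 0.01, no call and no unadjusted p under 0.05. Its lowest members were Orc1, of the replication origin complex, at 10.8 FPKM in ablation and 17.0 FPKM in activation, and stg, the Cdc25 phosphatase of entry into mitosis, at 67.8 FPKM in ablation and 94.2 FPKM in activation.

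Heat shock genes were lower in ablation, with none called. Of 30 genes of the stress list at 10 FPKM or more 4 were higher and 26 lower, with a median log2 ratio of -0.20, and of the list's 38 tested genes 0 rose and 0 fell (unadjusted p under 0.05 for 2 higher and 3 lower transcripts). Hsp26, a small heat shock protein, had 2334 FPKM in ablation and 4527 FPKM in activation. Of its neighbours on 3L, Hsp23 had 6233 FPKM in ablation and 9434 FPKM in activation, and Hsp27 had 2432 FPKM in ablation and 3746 FPKM in activation. Hsp22, of the same cluster, had 483 FPKM in ablation and 1258 FPKM in activation, but the authors' deposited table gives no test for it. Hsp68, an inducible member of the Hsp70 family, had 660 FPKM in ablation and 1184 FPKM in activation, and DnaJ-1, its Hsp40 partner, had 267 FPKM in ablation and 427 FPKM in activation. Hsf, the factor that switches these genes on, had 47.3 FPKM in ablation and 67.2 FPKM in activation. The constitutive chaperones were closer, Hsc70-4 at 2497 FPKM in ablation and 2827 FPKM in activation and Hsc70-5 at 90.03 FPKM in ablation and 90.56 FPKM in activation. Genes of oxidative stress did not share the direction throughout: GstE1 had 93.3 FPKM in ablation and 53.3 FPKM in activation, and Cat, catalase, had 82.6 FPKM in ablation and 76.4 FPKM in activation. All of these genes except Hsp26, Hsp68 and GstE1 were chosen after their values were seen. Handling of the pools was not given in the labels beyond freezing in Trizol, and its part in these values was not tested.

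Glycolytic genes had higher values in ablation. Of 18 genes of at least 10 FPKM 14 were higher and 4 lower, with a median log2 ratio of 0.31, and of the list's 21 tested genes 0 rose and 0 fell (unadjusted p under 0.05 for 4 higher and 0 lower transcripts). Pgm1, phosphoglucomutase, which links glycogen to glycolysis, had 139 FPKM in ablation and 70.1 FPKM in activation, with p = 0.0007 in the authors' deposited table (q = 0.138). Ald1, aldolase, had 468 FPKM in ablation and 320 FPKM in activation, Gapdh2 had 1094 FPKM in ablation and 791 FPKM in activation, and Ldh, lactate dehydrogenase, had 103 FPKM in ablation and 70.1 FPKM in activation. Pfk, the committed step of the pathway, had 76.7 FPKM in ablation and 58.1 FPKM in activation, and Hex-A, hexokinase, had 66.1 FPKM in ablation and 48.1 FPKM in activation. Subunits of pyruvate dehydrogenase did not share this, Pdha at 82.9 FPKM in ablation and 87.9 FPKM in activation, and Pdhb at 82.6 FPKM in ablation and 106 FPKM in activation.

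The ribosomes of mitochondria and cytoplasm lay on opposite sides of equal. Of 72 mitochondrial ribosomal protein genes 51 were higher and 21 lower in ablation, with a median log2 ratio of 0.25, and of 78 cytoplasmic ones 17 were higher and 61 lower, with a median of -0.13. No transcript of either list was called, and an unadjusted p under 0.05 was held by 0 transcripts of the mitochondrial list and by 3 higher and 3 lower ones of the cytoplasmic list. mRpL40 had 58.6 FPKM in ablation and 31.4 FPKM in activation, and tko, a mitochondrial small subunit protein, had 56.9 FPKM in ablation and 34.8 FPKM in activation. RpL18 had 1767 FPKM in ablation and 3059 FPKM in activation, RpL24 had 1655 FPKM in ablation and 2647 FPKM in activation, and RpL39 went the other way, with 1506 FPKM in ablation and 893 FPKM in activation. Abundant genes were lower in ablation in general: the 188 genes with a geometric mean of at least 500 FPKM had a median log2 ratio of -0.09, against 0.05 for the 1456 genes between 10 and 20 FPKM. The cytoplasmic list summed to 361172 FPKM in ablation and 377909 FPKM in activation and the mitochondrial list to 4721 FPKM in ablation and 4309 FPKM in activation, and the part of level in these medians was not tested. Respiratory chain genes gave 41 higher and 24 lower of 65 with a median of 0.08, proteasome genes 7 higher and 23 lower of 30 with a median of -0.09, and translation factors 12 higher and 31 lower of 43 with a median of -0.08. These 3 lists had no call, and 3 lower transcripts of the respiratory chain list had an unadjusted p under 0.05, among them ND-MLRQ, a subunit of complex I, at 860 FPKM in ablation and 1451 FPKM in activation.

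**Figure D4:**
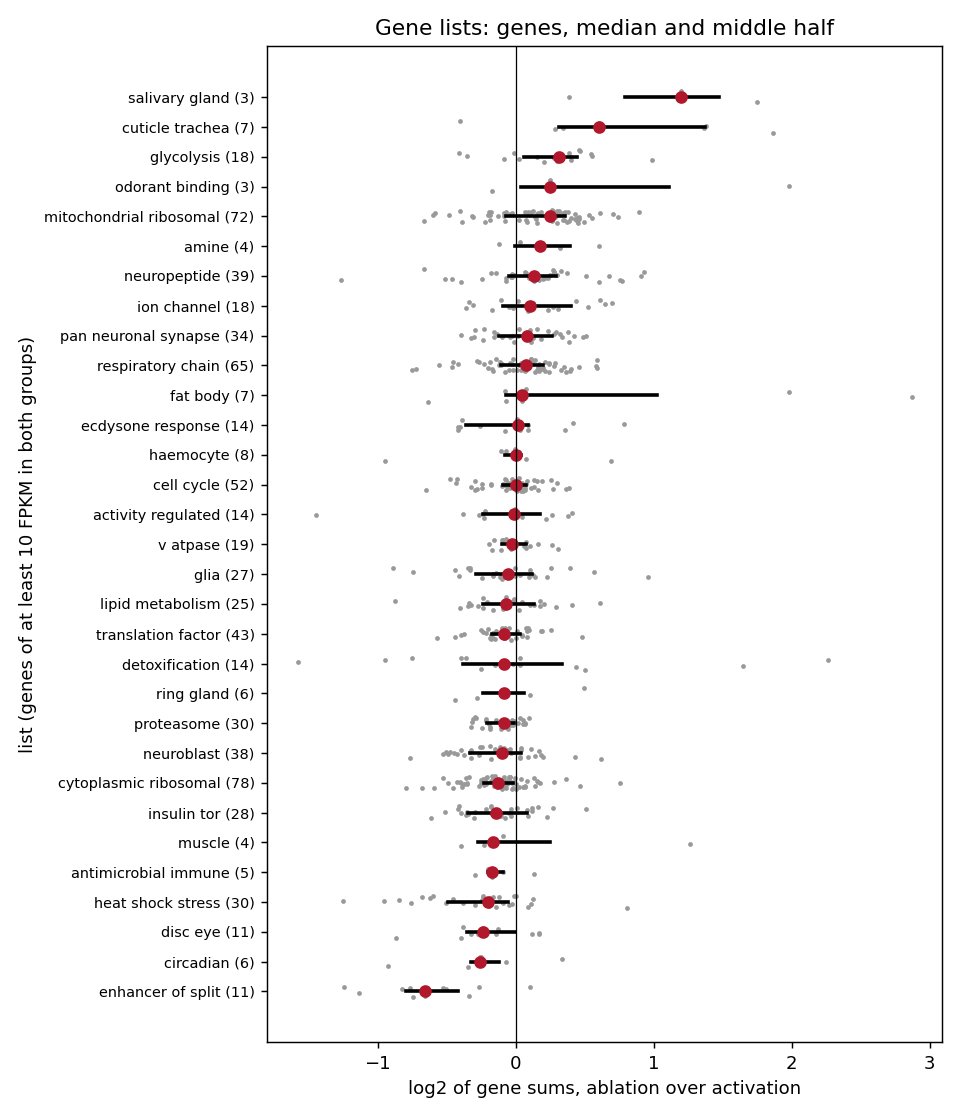
Log2 ratio of gene sums, ablation over activation, for the genes of at least 10 FPKM in both groups of each list (grey points, number in brackets). The red point is the median and the black bar spans the middle 50% of the genes. The Enhancer of split, heat shock and cytoplasmic ribosomal lists lie left of 0, and the glycolysis and mitochondrial ribosomal lists right of it.

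Neuronal, ion channel and glial genes showed no call in either direction, and an unadjusted p under 0.05 was held by 1 higher and 0 lower, 0 higher and 3 lower, and 2 higher and 2 lower transcripts of these lists. Of 34 pan-neuronal and synaptic genes of at least 10 FPKM 21 were higher and 13 lower in ablation, with a median log2 ratio of 0.08. Syp, of the same list, was among the lower ones, with a gene sum of 213 FPKM in ablation and 280 FPKM in activation. By gene sum, a gene of each fast transmitter was among the higher ones. ChAT, which makes acetylcholine, had 22.7 FPKM in ablation and 16.0 FPKM in activation, Gad1, which makes GABA, had 55.5 FPKM in ablation and 39.5 FPKM in activation, and VGlut, the vesicular glutamate transporter, had 50.03 FPKM in ablation and 37.3 FPKM in activation. Among ion channel genes 11 were higher and 7 lower of 18, with a median of 0.11. Lcch3, a GABA receptor subunit, had 59.0 FPKM in ablation and 36.4 FPKM in activation. An untested transcript of Lcch3 held 32.5 FPKM of this in ablation and 16.1 FPKM in activation. Ih, a channel opened by hyperpolarization, had 23.4 FPKM in ablation and 14.96 FPKM in activation, and na, a sodium leak channel, had 15.7 FPKM in ablation and 10.3 FPKM in activation. Of 27 glial genes 10 were higher and 17 lower, with a median of -0.05, and the 2 farthest from equal went opposite ways. Gs2, glutamine synthetase of glia, had a gene sum of 340 FPKM in ablation and 174 FPKM in activation. Its RA transcript had p = 0.00935 in the authors' deposited table. Its RC transcript was also higher in ablation, while RB had 31.4 FPKM in ablation and 65.3 FPKM in activation. bnb, a gene of embryonic glia, had a gene sum of 75.8 FPKM in ablation and 140 FPKM in activation. Its RD transcript had p = 0.00815 in the authors' deposited table. Gat, the GABA transporter of glia, had a gene sum of 85.4 FPKM in ablation and 57.6 FPKM in activation. Its RA transcript had 63.3 FPKM in ablation and 11.1 FPKM in activation, while RB had 22.2 FPKM in ablation and 46.4 FPKM in activation.

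Hormone response genes had ratios on both sides of equal. Of 14 genes of the ecdysone response list at 10 FPKM or more 8 were higher and 6 lower, with a median log2 ratio of 0.02, and no transcript was called (unadjusted p under 0.05 for 1 higher and 4 lower transcripts). Oatp74D, the importer that takes ecdysone into cells, had 55.7 FPKM in ablation and 32.3 FPKM in activation, with p = 0.00745 in the authors' deposited table. EcR, the ecdysone receptor, had 22.1 FPKM in ablation and 29.0 FPKM in activation, Eip75B, an early response gene, had 45.7 FPKM in ablation and 60.3 FPKM in activation, and br, the broad transcription factor, had 112 FPKM in ablation and 106 FPKM in activation. Genes of the ring gland, the endocrine gland attached to the brain, were found in both groups, with spok at 25.5 FPKM in ablation and 34.5 FPKM in activation and sad at 22.5 FPKM in ablation and 20.9 FPKM in activation. Both encode enzymes of ecdysone synthesis.

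A level gene sum could hide a different division among transcripts. Of 2218 genes of at least 10 FPKM with several transcripts 345 (15.6%) had a different main transcript in each group, and in 91 (4.10%) the share of the gene sum held by 1 of these transcripts differed by at least 50 percentage points. The gene sums of 86 of the 91 lay within 1.5-fold, and none of the 91 genes had either main transcript called, while 27 had an unadjusted p under 0.05 for either. Idh, isocitrate dehydrogenase, was the most abundant of the 6 named, with a gene sum of 342 FPKM in ablation and 391 FPKM in activation. Its RD transcript had 316 FPKM in ablation and 2.45 FPKM in activation, and its RA transcript 0.0340 FPKM in ablation and 321 FPKM in activation. Gyf, a GYF domain protein, had 84.5 FPKM of RA in ablation and 0.00174 FPKM in activation, and 0.0160 FPKM of RC in ablation and 71.0 FPKM in activation. Rab40, a small GTPase, had 21.6 FPKM of RA in ablation and 1.27 FPKM in activation, and 0.00121 FPKM of RB in ablation and 23.2 FPKM in activation. The transcripts of a gene share most of their sequence, and the share that Cuffdiff gives to each is an estimate whose error per pool was not tested.

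**Figure D5:**
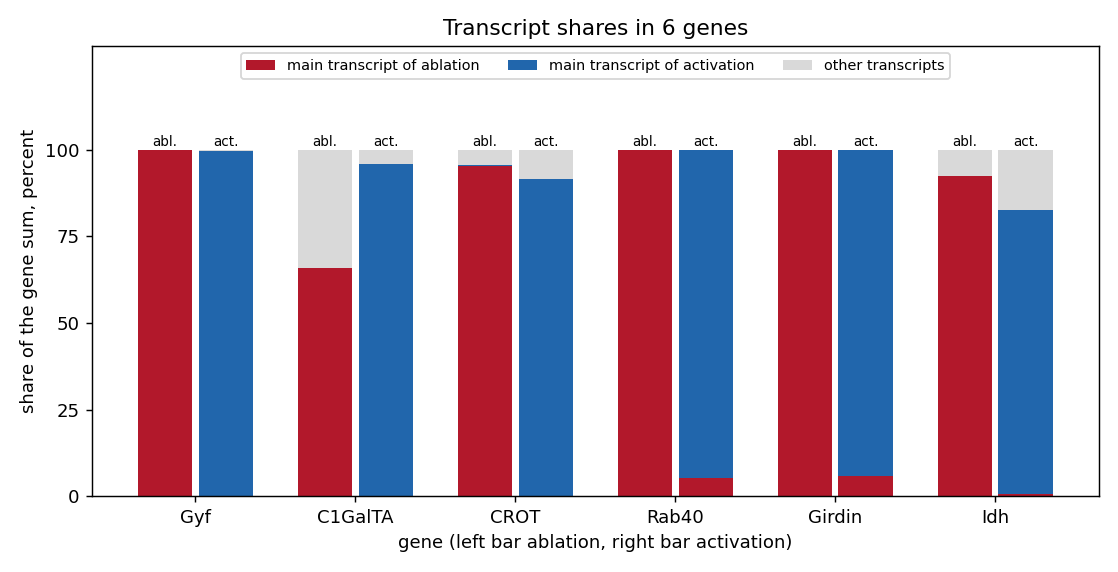
Share of the gene sum in percent held by the main transcript of ablation (red), the main transcript of activation (blue) and all other transcripts (grey) in the 6 genes with the widest move. For each gene the left bar is ablation and the right bar activation. In ablation the red transcript holds between 65.8% and 100% of the sum, and in activation the blue transcript holds between 82.1% and 99.7%.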

How the data were processed

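Total RNA of pooled wandering larval brains was sequenced, and the authors deposited a Cuffdiff table for activation (called induction there) and ablation with 21081 transcripts. TopHat2, Cufflinks, Cuffdiff and build dm3 are named, per the submitters' processing notes, and no source used here gives their versions or settings. The authors' FPKM are 1 value per group, scaled to transcript length and library size. The deposited log2 fold change is ablation over activation, and among tested transcripts it is infinite where a group is 0. The deposited test statistic is a score, and tested transcripts have a value only where both groups are above 0; it is 0 for transcripts without a test. Deposited p-values and q-values come from Cuffdiff. Benjamini-Hochberg values over the 12419 transcripts with status OK matched the deposited q-values to within 5.13e-07, with a routine checked on simulated data. The deposited log2 differed by over 0.01 from the log2 of both values in 23 of 11556 transcripts.

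Transcripts were summed to genes by CG number, and 12913 genes were named by locus tag, 171 by synonym and 928 by number alone, from an annotation of another build that was used for names only. Coordinates are those of loci in the deposited table, counted from 1, and a locus can span overlapping genes. Genes entered with status OK and ratios with at least 10 FPKM in both groups. Lists are described by calls and by the median of log2 ratios, beside all genes. Over all 8959 tested genes the median of log2 (FPKM + 1) ratios was 0.01. The members and the 32 lists were chosen with earlier results of these data known. Entries that picked up an unintended gene were dropped, and the Enhancer of split list was added after its values were seen. Named in the text or figures are the called transcripts above 0 in both groups, the 15 highest and 15 lowest ratios and the genes of the design. The 3 highest calls at 0 in each direction and 6 genes of the transcript comparison are named as well. Up to 4 members of each list with the ratio farthest from 0 were also picked by rule. Not all of these are named, and no rule set which were left out. All other named genes were picked with their values in view. No label says whether the pools were dissected or bred apart, so the spread between them may be technical. How Cuffdiff modelled that spread for the deposited p-values is unknown, since its settings are not given. The comparisons with control brains were not used here. The software was Python 3.11.15, with matplotlib 3.10.9 for figures and scipy 1.17.1, pandas 2.3.3 and numpy 2.4.6 for values.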

Additional observations from a re-analysis of the deposited data

How the results depend on the processing

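The smallest q was 0.0163, so at a q of at most 0.01 the 46 calls became 0. Adjusted over transcripts above 0 in both groups they also became 0, and with normal p-values from the statistic 28. The 51 genes that differed 2-fold were 115 with a floor of 5 FPKM, 22 with 20 FPKM and 30 with a pseudocount of 5. They were 30 with loci of at least 1000 bases only, a setting chosen after seeing the data. The 91 genes in which the share of a main transcript moved by at least 50 points were 55 with a floor of 20 FPKM and 239 with a move of 25 points, both chosen after seeing the data. Outside the lists of other tissues, also chosen after seeing the data, 34 calls (19 higher, 15 lower in ablation) and 43 of the 51 genes (21 higher, 22 lower) were left.

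Of 159 list medians under other settings 5 had another sign. With genes of at least 10 FPKM in both groups only, muscle went to -0.16, against 0.58 over tested genes, cuticle and trachea to 0.61, against -0.12, salivary gland to 1.20, against -0.12, and cell cycle stayed within 0.01 of 0. With long loci only, odorant-binding genes went to -0.17, against 0.25. Of 405 values of named genes under other settings 2 had another sign, VhaM9.7-a at 0.28 and bsh at -1.01 with status OK transcripts only. No paired analysis was possible because the table holds 1 value per group and no columns of replicates, and for the same reason no pool could be left out in turn and no count interval given.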

Other observations

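Genes on chromosome 4 were lower in ablation more often than genes on any other arm. Of the 64 genes of at least 10 FPKM in both groups that lie there 50 were lower and 14 higher, with a median log2 ratio of -0.16, while the medians of the 5 long arms ran from -0.03 on 2L to 0.05 on X. toy, a Pax6 gene of eye and brain, had 47.0 FPKM in ablation and 61.8 FPKM in activation, ci, the factor of hedgehog signalling, had 20.6 FPKM in ablation and 26.8 FPKM in activation, and eIF4G1, a translation initiation factor, had 85.5 FPKM in ablation and 112 FPKM in activation. Gat, also on chromosome 4, went the other way in its gene sum. In the labelled genotypes no transgene lies on chromosome 4, and no test of the difference between arms was run.

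Some further genes lay near the threshold or far from equal without a call. CG42268 had 33.2 FPKM of its RF transcript in ablation and 6.46 FPKM in activation (q = 0.0731 in the authors' deposited table), with gene sums of 33.2 FPKM in ablation and 31.6 FPKM in activation. CG5618 had 7.72 FPKM of its RA transcript in ablation and 45.1 FPKM in activation (q = 0.0903 in the authors' deposited table). Tep4, a thioester protein of immunity, had 6.69 FPKM in ablation and 18.8 FPKM in activation (q = 0.0964 in the authors' deposited table). vri, a repressor of the circadian clock, had a gene sum of 14.2 FPKM in ablation and 26.9 FPKM in activation, while cyc, its activator, had 46.9 FPKM in ablation and 37.0 FPKM in activation. Ance, a peptidase in the haemocyte list, had 22.6 FPKM in ablation and 43.5 FPKM in activation, and Col4a1, a collagen of the same list, had 23.4 FPKM in ablation and 14.51 FPKM in activation. All of these are group values with no known spread between pools.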
